A study of Mus musculus with 15 samples.

Results

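The replication-dependent histone genes encode the H1, H2A, H2B, H3 and H4 proteins that package newly copied DNA. They were followed here in regulatory T cells (Treg) sorted from spleens of mice with switched-on or disabled Notch signalling. A transcript cluster, which is the unit that the Affymetrix Mouse Gene 1.0 ST array reports, was taken as a member where every gene symbol annotated to it was a clustered histone gene. A symbol counted by its current name (H2ac, H2bc, H3c or H4c with a number, H1f1 to H1f5) or by the older Hist1h, Hist2h, Hist3h and Hist4 names that RefSeq lists for it. Of 24922 clusters on the array 53 were members, and 42 were so by the current names alone. Of the 53, 31 named 1 gene and 22 named several, and together they named 55 symbols. There were 5 clusters of H1, 1 shared by an H2B and an H1 gene (H2bc6 and H1f4), 5 of H2A, 17 of H2B, 13 of H3 and 12 of H4. Clusters that named another gene beside a histone (3) were left out.

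Each array carried amplified RNA of 40000 to 50000 splenic Treg from 6-week-old male mice, with cells of several mice pooled per sort. The gate took cells positive for CD3, TCRbeta, CD4 and the GFP encoded in the Foxp3 allele and negative for the lineage markers CD8, B220, CD11b, CD11c and Gr1. All 4 groups carried Foxp3EGFPCre, which places Cre recombinase in cells that express Foxp3, so the controls carry Cre too. The control group had this allele alone (4 arrays, numbered 2 to 5). The N1c group (4 arrays, numbers 1, 2, 4 and 5) also had R26N1c/N1c, which after Cre cutting makes Notch1's active intracellular fragment. The RBPJdel group (4 arrays, numbers 1 to 4) was RBPJ∆/∆, made from RBPJfl/fl, and so lacked the DNA-binding partner of that fragment in Cre-expressing cells. The N1c_RBPJdel group (3 arrays, numbers 1 to 3) had both changes. N1c_RBPJdel cells came from a FACSAria and all other cells from a MoFlo. Sorter and genotype therefore cannot be told apart in any comparison with that group, the interaction included. The sources used here do not give the primer used for amplification.

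Replication-dependent histone mRNAs are made in S phase, when DNA is copied, and are degraded at its end. They carry no poly(A) tail and end in a stem-loop bound by SLBP, and their genes are switched on by NPAT in nuclear bodies at the histone gene clusters. In T cells they follow the share of cells that are dividing. Fewer cells in S phase and less histone RNA per such cell cannot be told apart in RNA of sorted pools. The genes are near copies of each other, so that probes can share signal between them. The uncertainty is greatest for the several-gene clusters: 6 of H2B name 14 or 15 genes each, 10 of H3 name 12 and 4 of H4 name 11. Within each of these sets the clusters ran in parallel over the 15 arrays (lowest r between clusters 0.993, 0.995 and 0.994), so the 20 clusters are close to 3 separate readings rather than 20. H2bc6/H1f4 and H4c17/H4c11 name 2 genes each.

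RefSeq placed the 31 genes of the 1-gene clusters on chromosome 13 (23 genes), 3 (4), 11 (3) and 6 (1), build GRCm38.p6. The RefSeq promoter table held 26 of them. The 250 bases before the start were searched on both strands for 7 short motifs. The octamer ATTTGCAT lay before 4 of 5 H2A and 5 of 8 H2B genes and before no H1, H3 or H4 gene, in all 9 of 26 (34.6%) against 1.60% of all 32851 promoters in the table. CCAAT lay before all 5 H1, 5 H2A and 8 H2B genes, and in all before 80.8% against 33.8% of promoters. TATAAA was found in 57.7% against 12.4%, and AAACACA, the H1 box, in 30.8% against 6.25%, among them 4 of 5 H1 genes. TGGGAA, the core letters bound by RBPJ, lay before 2 of 26 (7.69% against 21.6%), H2bc3 and H2bc1. TTTGGCGC and TTTCCCGC, written after E2F sites, lay before none of the 26 and in 0.417% and 0.895% of promoters. Among these 26 genes, H2ac1 and H2bc1 (281 bases between starts) and H2ac8 and H2bc8 (180 bases) face away from each other. Each pair shares most of these windows, including the octamers. Genes outside the 26 were not compared, so other windows may also reach into a neighbouring gene. A match is a description of these letters and not a measured site. The windows of 5 genes that the results below turn on follow, 5′ to 3′ on the strand of the gene, with matches to any of these motifs on either strand in capitals. They are H2bc14 and H2bc3, which rose most among the called genes in N1c, H2ac15 and H1f1, which fell in N1c_RBPJdel against both single-change groups, and H1f5, which fell against N1c.
H2bc14, chr13:21721794-21722043, plus strand: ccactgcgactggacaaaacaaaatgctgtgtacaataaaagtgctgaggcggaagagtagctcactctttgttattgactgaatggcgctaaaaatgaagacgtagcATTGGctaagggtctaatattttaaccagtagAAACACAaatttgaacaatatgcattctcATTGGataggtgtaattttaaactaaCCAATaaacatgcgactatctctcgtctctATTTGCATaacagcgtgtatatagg
H2bc3, chr13:23746484-23746733, plus strand: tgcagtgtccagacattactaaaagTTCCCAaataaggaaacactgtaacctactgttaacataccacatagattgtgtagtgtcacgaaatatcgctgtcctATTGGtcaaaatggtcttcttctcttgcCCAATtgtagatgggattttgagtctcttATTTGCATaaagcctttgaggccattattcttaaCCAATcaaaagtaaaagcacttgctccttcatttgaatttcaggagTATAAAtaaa
H2ac15, chr13:21753913-21754162, minus strand: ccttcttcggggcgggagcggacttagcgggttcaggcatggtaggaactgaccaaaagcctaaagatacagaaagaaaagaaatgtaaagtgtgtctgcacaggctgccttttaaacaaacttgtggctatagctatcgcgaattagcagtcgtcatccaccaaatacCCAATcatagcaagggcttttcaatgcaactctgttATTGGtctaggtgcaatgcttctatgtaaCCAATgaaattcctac
H1f1, chr13:23763418-23763667, plus strand: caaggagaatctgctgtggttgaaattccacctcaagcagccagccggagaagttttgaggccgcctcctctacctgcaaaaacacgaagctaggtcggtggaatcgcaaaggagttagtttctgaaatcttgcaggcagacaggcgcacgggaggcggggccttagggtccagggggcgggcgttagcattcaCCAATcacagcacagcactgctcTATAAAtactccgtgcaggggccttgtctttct
H1f5, chr13:21780626-21780875, minus strand: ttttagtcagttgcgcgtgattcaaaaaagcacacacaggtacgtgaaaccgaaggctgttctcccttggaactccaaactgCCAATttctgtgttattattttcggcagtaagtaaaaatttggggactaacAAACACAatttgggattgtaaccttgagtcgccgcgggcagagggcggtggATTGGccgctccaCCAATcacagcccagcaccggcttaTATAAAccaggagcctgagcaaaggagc

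**Figure D1:**
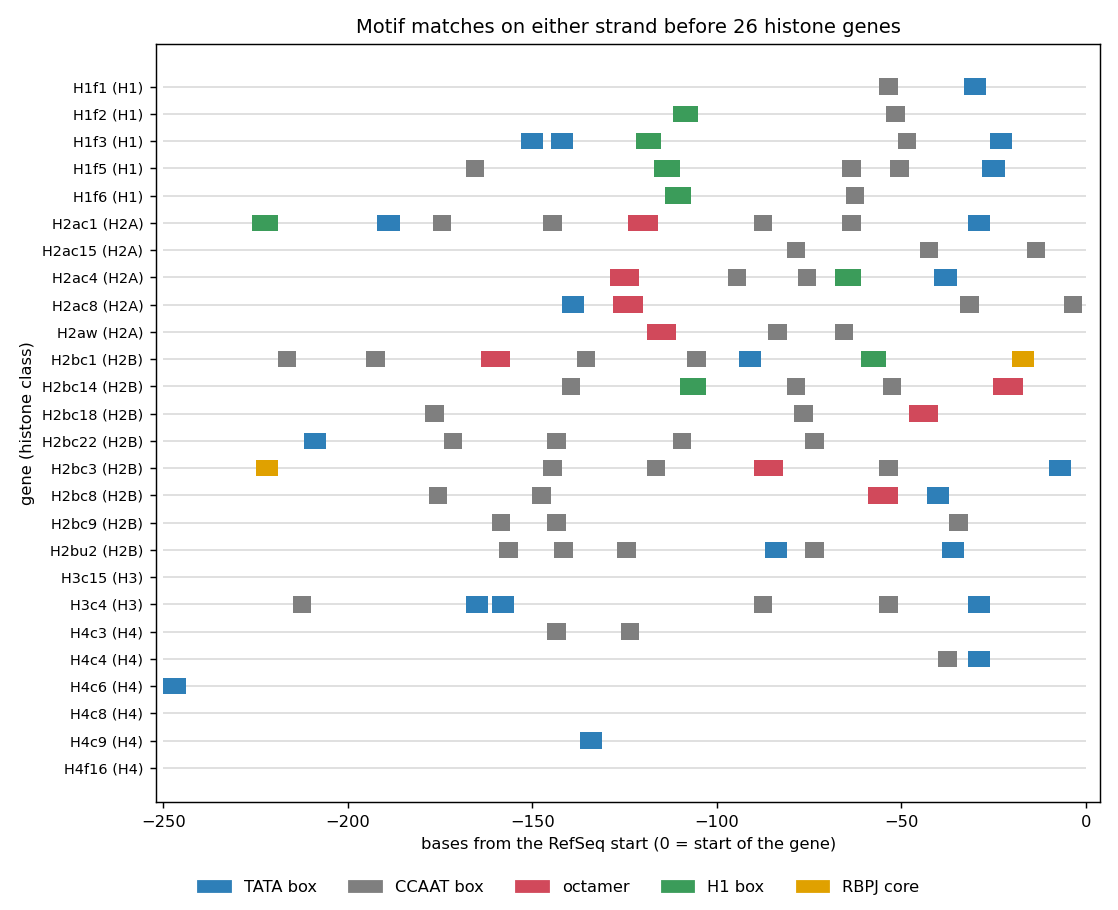
Position of motif matches on either strand in the 250 bases before 26 histone genes, with distance from the RefSeq start on the x axis and 1 line per gene, ordered by class. The octamer (red) is found before 4 of 5 H2A and 5 of 8 H2B genes and before no H1, H3 or H4 gene, and both RBPJ core matches are before H2B genes.

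Levels are deposited intensities after conversion to a log2 scale for all means and tests, and a change is the log2 difference between 2 group means, given with the standard error (SE) of the limma fit over all 24922 clusters. Changes were called at a Benjamini-Hochberg adjusted p under 0.05 (limma, two-sided). Array medians lay between 107 and 117, and 12 of the 53 histone clusters, 11 of them naming 1 gene, had a mean below the median cluster (111). Rbpj, the check of the deletion, lay at 571, 472, 470.3 and 483 in control and at 528, 572, 500.0 and 489 in N1c. It lay at 259.6, 294, 293 and 225 in RBPJdel and at 175, 258 and 201 in N1c_RBPJdel, below every array of the other 2 groups. Foxp3 had geometric means of 4979 (control), 4342 (N1c), 5333 (RBPJdel) and 4219.7 (N1c_RBPJdel) and Notch1 of 1227, 1252, 1326 and 1008. No comparison called either gene, so the level of Notch1 did not mark the groups that carry R26N1c/N1c. The defining markers Foxp3, Il2ra, Ctla4, Ikzf2, Tnfrsf18, Cd4 and Cd3e summed to between 22962 and 29601 on all arrays.

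Active Notch1 went with more histone RNA, and in the unpaired fit only H2B clusters were called. In N1c against control 10 of the 53 histone clusters rose and none fell, where 0.754% of all clusters rose and 0.506% fell. All 10 were H2B: H2bc14, H2bc3, H2bc9 and H2bc1, and the 6 clusters naming 14 or 15 H2B genes. A paired fit, given below, called H3 clusters as well and fewer H2B clusters, so the calls do not set H2B apart. The median change of the 53 was 0.57 against -0.01 over all rows, and 0.39 over the 31 clusters naming 1 gene. Of the 53, 51 were higher in N1c. The exceptions were H1f6 (-0.12) and H2bc4 (-0.63). N1c arrays lay above every control array for 25 of the 53, 9 of them among the 31 that name 1 gene, against 2.85% of all clusters.

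H2bc14 (transcript cluster 10403943; the octamer in its window is 18 to 25 bases before the start) lay at 726, 804, 491 and 573 in control 2, 3, 4 and 5. It lay at 2034, 984, 1311 and 1376 in N1c 1, 2, 4 and 5, above all controls. It rose by 1.11 ± 0.20 (SE, n = 4 and 4; adjusted p = 0.00707), and that call was kept when any 1 array was left out. It was lost in 3 of 24 alternatives, the paired fit of N1c and control alone and both splits by array number, and its adjusted p ran from 0.00244 to 0.446. H2bc3 (10404061) went from 469, 495, 352 and 260.3 to 1137, 682, 708 and 741, a rise of 1.06 ± 0.24 (adjusted p = 0.0367). N1c 1 stood apart as the highest, and the others of its group still lay above the controls. H2bc1 (10408266) went from 80.1, 83.6, 58.8 and 63.8 to 131, 85.1, 115 and 130.4, a rise of 0.69 ± 0.15 (adjusted p = 0.0262). Its level was below the median cluster in control, and N1c 2 was barely above the highest control. H2bc9 (10408197) went from 731, 843, 673 and 654 to 1329, 818, 1139 and 1190.1, a rise of 0.61 ± 0.14 (adjusted p = 0.0377), with N1c 2 inside the range of the controls. The median of the 6 several-gene H2B clusters was 3477, 3948, 2909 and 2762 in control and 7236, 4568, 5364 and 5330.3 in N1c. Each of these 6 rose, by 0.69 to 0.78 (adjusted p = 0.0201 to 0.0294).

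The other classes were higher in N1c without a call in the unpaired fit. The linker histone gene H1f1 (10404069) lay at 267, 247, 260.4 and 249.6 in control and at 517, 387, 344 and 291 in N1c, a difference of 0.56 ± 0.14 (adjusted p = 0.0607). H2ac15 (10408077), the brightest H2A cluster, lay at 1733, 1975, 1249.8 and 1137 in control and at 3211, 2337, 2282 and 2833 in N1c, 0.83 ± 0.20 (adjusted p = 0.0561). Neither overlapped between the groups. The median of the 10 several-gene H3 clusters split the controls in pairs, with 4003 and 3995 in control 2 and 3 and 1939 and 1943 in control 4 and 5. N1c was higher than all of them at 6723, 5969, 4448 and 4439.8. Each of the 10 differed by 0.90 to 0.95 (adjusted p = 0.122 to 0.189). Among several-gene clusters H4 differed least: the median of its 4 was 4645, 4986, 3322 and 4121 in control and 5439, 4938, 4578 and 4515 in N1c, and these differed by 0.18 to 0.23. The 7 H4 clusters naming 1 gene had a median difference of 0.40, against 0.39 for H1, 0.27 for H2A and 0.28 for H3. H4f16 (10548857), an H4 gene apart from the others on chromosome 6, lay at 378, 376, 281 and 303 against 552, 446, 580.2 and 428, a difference of 0.58 ± 0.15 (adjusted p = 0.0883). The brightest H1 cluster, H1f2 (10404059), had 254, 225, 537 and 547 in control and 706, 355, 489 and 406 in N1c, and the groups overlapped (0.39 ± 0.31).

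The number of calls in N1c hung on single arrays. It was 1, H2bc14, without N1c 1, N1c 4, control 4 or control 5, 2 without N1c 5, 4 without control 2, and 3 in a fit of these 2 groups alone. Over all alternatives the adjusted p ran from 0.0198 to 0.632 for H2bc3, 0.00349 to 1.00 for H2bc9 and 0.00401 to 1.00 for H2bc1. Same-numbered N1c and control arrays deviated together, and with the number as a replicate block 23 histone clusters rose, the 10 H3 clusters, H1f5, H2ac15 and H2ac4 among them, while among all clusters 313 rose (1.26%). In a blocked fit of N1c and control alone 16 rose. These were the 10 H3 clusters, H1f5, H2ac4, H2bc3 and 3 of the 6 several-gene H2B clusters, so only 4 of the 10 H2B calls held in that paired fit and H2bc14, H2bc9 and H2bc1 were lost. Between arrays of the same number the median histone cluster was higher in N1c by 0.36 for number 2, 0.77 for number 4 and 0.50 for number 5, with 46, 47 and 48 of 53 clusters higher. Within numbers 1 to 3 the median change was 0.57 and 1 cluster was called, H2ac4, and within numbers 4 and 5 it was 0.55 with none called (limma in all of these).

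**Figure D2:**
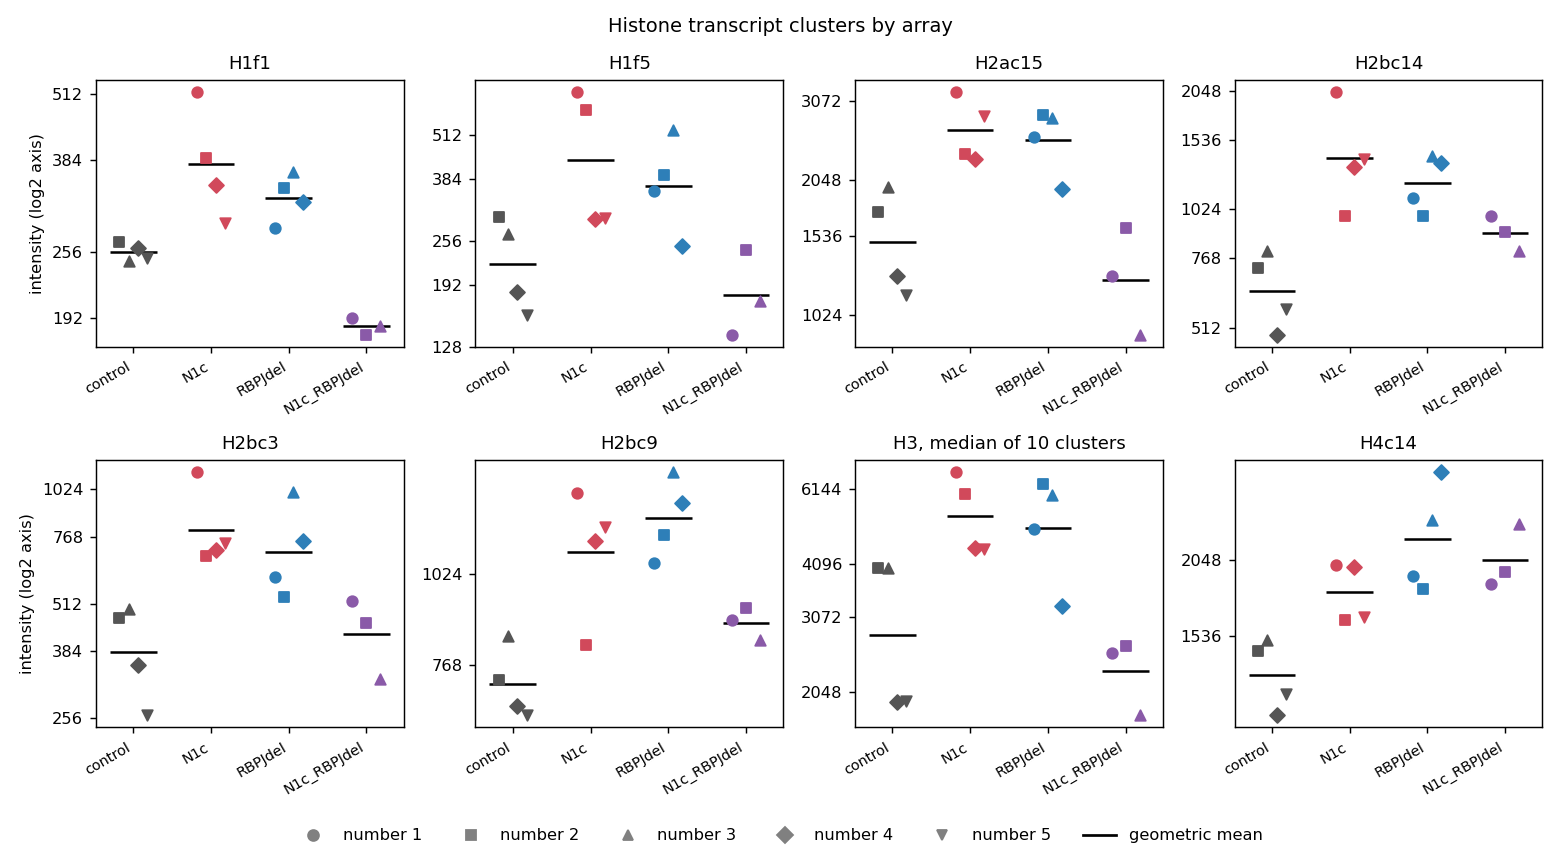
Intensity on a log2 axis of 7 histone transcript clusters and of the median of the 10 several-gene H3 clusters on each of 15 arrays, by group, with the marker shape giving the replicate number and the line the geometric mean. N1c lies above every control array in all panels but H2bc9 and H1f5, H1f1 is lowest on the N1c_RBPJdel arrays (178 to 192), and control arrays 4 and 5 lie below 2 and 3 in the H3 panel.

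With Rbpj deleted and no active Notch1, most histone clusters were higher than in control, without a call. In RBPJdel against control 0 histone clusters were called (limma), with 37 higher and 0 lower at an unadjusted p under 0.05, where 0.0281% of all clusters rose and 0.0522% fell. The median difference was 0.53 against 0.03 over all rows, and 52 of 53 clusters were higher in RBPJdel. The exception was the dim H3c15 (-0.22). RBPJdel lay above every control array for 22 of the 53, 11 of them naming 1 gene, against 2.82% of all clusters. N1c and RBPJdel are set against the same 4 control arrays, which ties their differences together.

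The closest to a call was H2bc9, at 1063, 1162, 1419 and 1285 in RBPJdel 1 to 4, above all controls (0.76 ± 0.14, adjusted p = 0.0560). It was called without N1c 1 or without N1c 2, after quantile normalization, among brighter clusters and with array weights. H4c14 (10500333), an H4 gene on chromosome 3, lay at 1452, 1512, 1139 and 1233 in control and at 1927, 1835, 2388 and 2858 in RBPJdel, without overlap (0.74 ± 0.14, adjusted p = 0.0918). H2bc14 had 1091, 985, 1400.2 and 1345 (0.91 ± 0.20, adjusted p = 0.182) and H2bc3 602, 534, 1009.8 and 747 (0.88 ± 0.24, adjusted p = 0.331). All these arrays were above the controls. H1f1 had 285, 339, 364 and 319.7 (0.35 ± 0.14), above the controls. H2ac15 had 2548, 2859, 2807 and 1957 (0.76 ± 0.20), with RBPJdel 4 inside their range. The several-gene H2B clusters had medians of 4910.3, 4660.4, 5977 and 4951, all above control, and the H3 clusters of 4947, 6315, 5929 and 3259. In H3, RBPJdel 4 lay below control 2 and 3. H4c4 (10404051), the brightest H4 cluster, lay at 7708, 7950.1, 7948 and 7607 against 6317, 6841, 3525 and 5657 in control (0.53 ± 0.24). With array weights 11 clusters were called. Between arrays of the same number the median cluster was higher in RBPJdel by 0.32, 0.51 and 0.73 for numbers 2, 3 and 4, with 46, 50 and 51 of 53 higher.

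**Figure D3:**
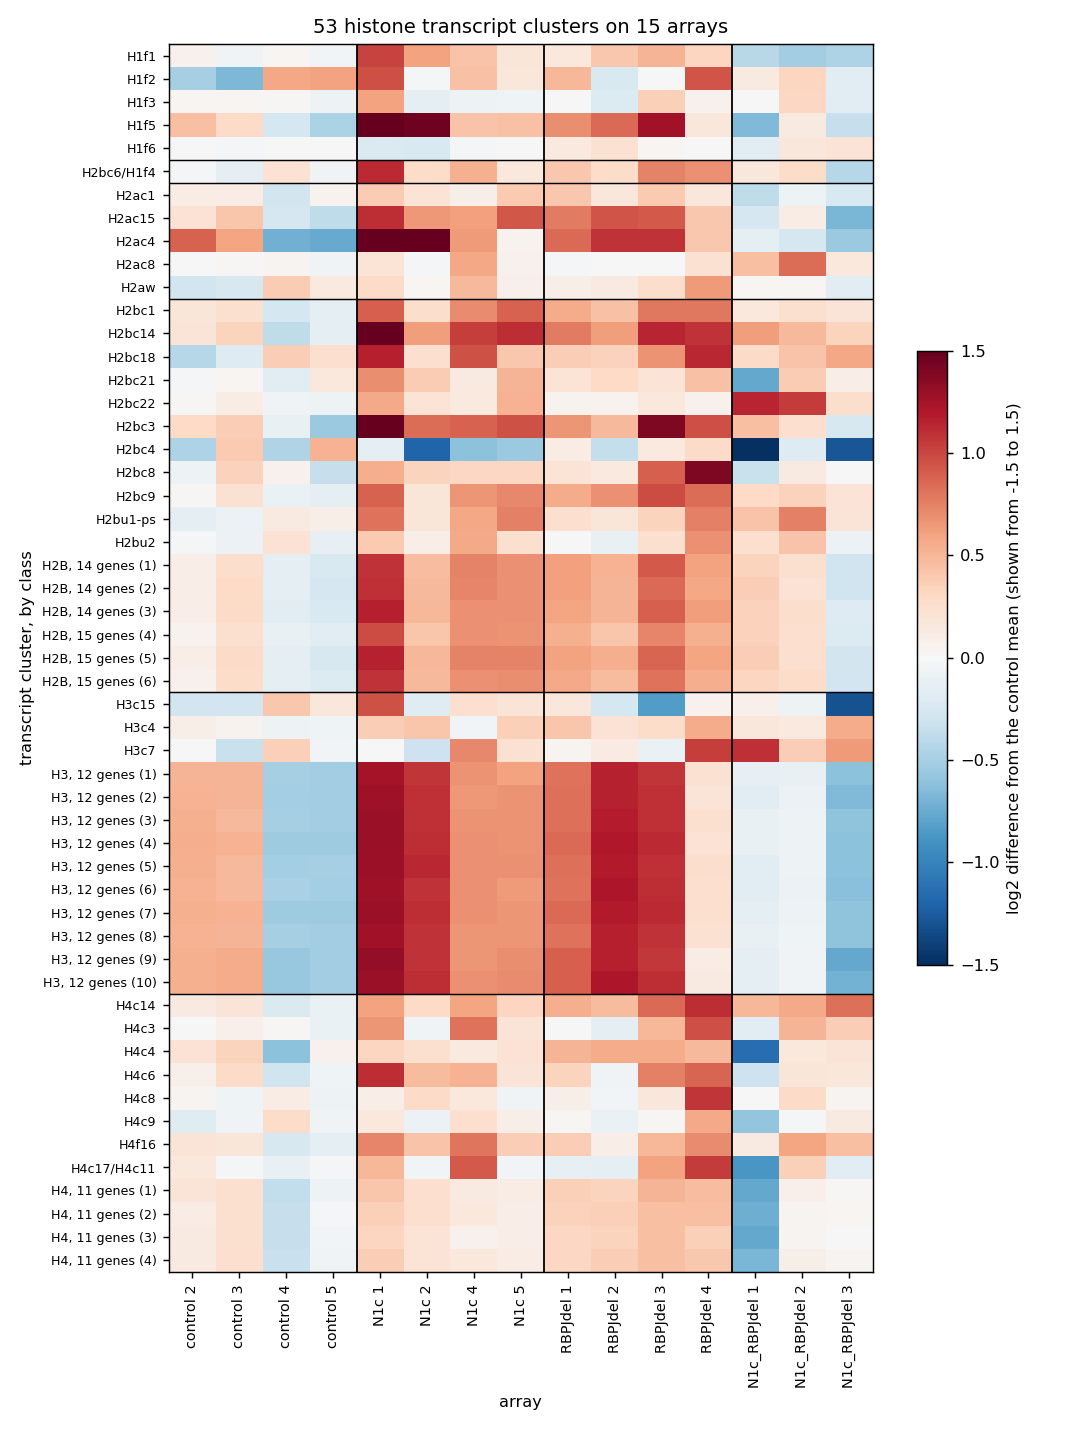
Log2 difference of each of the 53 histone clusters (rows, by class) from the mean of the 4 control arrays, on each of the 15 arrays (columns); red is higher and blue lower, shown from -1.5 to 1.5. Most rows are red on N1c and RBPJdel arrays, the 10 H3 clusters separate control 2 and 3 from control 4 and 5, and the H4 clusters are lowest on N1c_RBPJdel 1.

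With both changes together the median histone cluster lay near the mean of the 4 control arrays. In N1c_RBPJdel against control 2 clusters rose and none fell, where 3.74% of all clusters rose and 4.82% fell, so the share called among histones was close to or under that of all clusters. The median difference was -0.03 against 0.03 over all rows, and it was 0.04 without N1c_RBPJdel 1. N1c_RBPJdel arrays bear only numbers 1 to 3, while the control mean also rests on control 4 and 5. The several-gene H3 clusters had medians of 2525, 2626 and 1800.4 in N1c_RBPJdel. Control 2 and 3 lay above these at 4003 and 3995, and control 4 and 5 lay at 1939 and 1943. The clusters naming 1 gene had 0.03, 0.25 and 0.13 as median log2 differences from the control mean. Control 2 and 3 had 0.02 and 0.08 there. H2bc22 (10403951) lay at 87.4, 92.5, 82.7 and 81.8 in control and at 190.2, 177 and 103 in N1c_RBPJdel, a rise of 0.82 ± 0.17 (n = 3 and 4; adjusted p = 0.0122). H4c14 lay at 1873, 1958 and 2352, a rise of 0.63 ± 0.16 (adjusted p = 0.0240), and did not overlap control. Neither was called without N1c_RBPJdel 1, within numbers 1 to 3 or in a fit of the compared groups alone. Within numbers 1 to 3 the called histone clusters were others, counted in the closing section. In that fit 2.74% of all clusters rose and 4.98% fell. H4c14 was also lost without N1c_RBPJdel 3, without control 4 and with array weights, in 6 of 22 alternatives in all. H1f1 was below every control array at 192, 178 and 185 (-0.47 ± 0.15, adjusted p = 0.0589) and was called without N1c 1 or without N1c 5.

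Against N1c, the arrays with active Notch1 and deleted Rbpj had less histone RNA of several classes. In N1c_RBPJdel against N1c 21 of the 53 clusters fell and none rose, where 4.40% of all clusters fell and 4.51% rose. The 21 were H1f1 and H1f5, H2ac1 and H2ac15, H2bc3, the 6 several-gene H2B and the 10 several-gene H3 clusters, so 5 of the 31 clusters naming 1 gene were among them. The median of the 53 was -0.52 against 0.02 over all rows, and -0.30 over the 31 clusters naming 1 gene. N1c_RBPJdel lay below every N1c array for 30 of the 53, 10 of them naming 1 gene, against 8.56% of all clusters.

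H1f1 fell by 1.03 ± 0.15 (n = 3 and 4; adjusted p = 0.00074), the smallest p of the class, with every N1c_RBPJdel array below every array of the other 3 groups. H1f5 (10408081) went from 678, 604, 296 and 297 in N1c to 138, 241 and 172, and fell by 1.28 ± 0.33 (adjusted p = 0.0262). Its controls lay at 299, 268, 183 and 157. H2ac15 went to 1248, 1602 and 924 and fell by 1.10 ± 0.21 (adjusted p = 0.00649), and H2ac1 (10404127) went from 266, 235, 218 and 269.9 to 157, 194 and 175 and fell by 0.50 ± 0.12 (adjusted p = 0.0208). H2bc3 went to 521, 454 and 324 and fell by 0.91 ± 0.26 (adjusted p = 0.0388). None of these 5 overlapped between the groups. The several-gene H3 clusters had medians of 2525, 2626 and 1800.4 and fell by 1.17 to 1.26 (adjusted p = 0.0158 to 0.0228), and those of H2B had 4156, 3873 and 2754 and fell by 0.56 to 0.67 (adjusted p = 0.0281 to 0.0364). The 3 H3 clusters naming 1 gene, all dim, did not follow. Their median difference was 0.01 (-0.74 to 0.54), and 2 of the 3 were higher in N1c_RBPJdel. H2bc14, at 986, 894 and 801, was not called (-0.63 ± 0.21, adjusted p = 0.0760), nor was any H4 cluster. On N1c_RBPJdel 1 H4c4 had 2454 against 6040.2 and 6203 on the other 2 arrays, and the several-gene H4 clusters had 2561 against 4398 and 4305. The calls of H1f1 and H2ac15 held without any 1 array, but 2 clusters were called without N1c 1, 4 without N1c_RBPJdel 3, of which H2bc22 rose, and 12 without N1c 2.

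In N1c_RBPJdel against RBPJdel 3 clusters fell, H1f1 (-0.82 ± 0.15, adjusted p = 0.0168), H2ac15 (-1.04 ± 0.21, adjusted p = 0.0280) and H2ac1 (-0.52 ± 0.12, adjusted p = 0.0411), and H2bc22 rose (0.73 ± 0.17, adjusted p = 0.0386). Of all clusters 0.871% fell and 1.17% rose. The median of the 53 was -0.52 against -0.0047 over all rows, and N1c_RBPJdel lay below every RBPJdel array for 32 of them, 11 naming 1 gene, against 8.37% of all clusters. The several-gene H3 clusters differed by -1.14 to -1.08 (adjusted p = 0.0511 to 0.0686). The count was 0 without N1c_RBPJdel 1 or RBPJdel 3, 1 without RBPJdel 1 or 2, 2 without N1c_RBPJdel 3, control 2 or control 3, 12 without control 5, 13 without RBPJdel 4 and 20 without N1c_RBPJdel 2. In the last 3 settings 1.28%, 0.987% and 4.36% of all clusters fell.

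**Figure D4:**
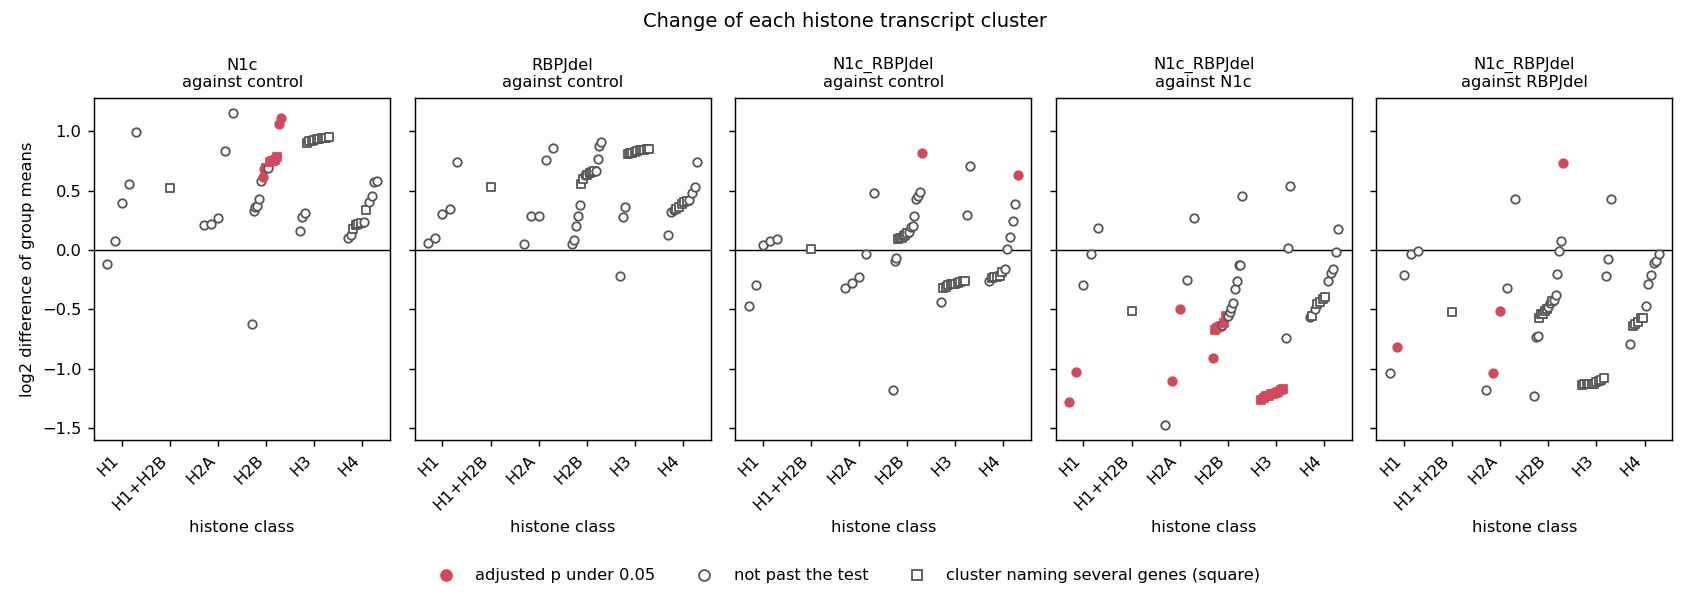
Log2 difference of group means for each of the 53 histone clusters in 5 comparisons, by class; filled red points passed an adjusted p of 0.05 (limma), circles name 1 gene and squares several. Called points are all H2B in N1c against control (10) and include the H3 squares in N1c_RBPJdel against N1c (21), and no point is filled in RBPJdel against control.

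The interaction asks whether active Notch1 shifted histone RNA differently with and without Rbpj. It rests on the N1c_RBPJdel arrays, so the state of Rbpj cannot be told apart from the sorter in it. Here 23 of the 53 clusters were lower than the sum of both changes and none was higher, where 0.502% of all clusters were lower and 0.245% higher. They were the 10 several-gene H3 clusters (median -2.06), the 6 of H2B (median -1.28), H2ac15 (-1.86 ± 0.29, adjusted p = 0.00620), H2bc3 (-1.79 ± 0.35), H2bc14 (-1.54 ± 0.29), H1f1 (-1.37 ± 0.20, adjusted p = 0.00426), H2bc1 (-1.13 ± 0.21), H2bc9 (-1.09 ± 0.20) and H2ac1 (-0.78 ± 0.16). The median of the 53 was -1.04 against -0.0023 over all rows. No H4 cluster was called (-1.04 to -0.33), nor was any of the 3 dim H3 clusters naming 1 gene (-0.52 to 0.27). The count was 11 without N1c_RBPJdel 3 or RBPJdel 3, 13 without RBPJdel 2 and 15 without N1c 1 or N1c 2.

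Genes that act with these histones were read from lists of their regulators and of the cell cycle. Slbp, the stem-loop binder, had geometric means of 364 (control), 381 (N1c), 369 (RBPJdel) and 370.2 (N1c_RBPJdel) and was called nowhere. Of 12 genes of histone mRNA processing and transcription none was called in N1c or RBPJdel, and 3 fell in N1c_RBPJdel against N1c. These were Npat, the activator of histone genes (516 to 393, -0.39 ± 0.11), Gon4l (-0.32) and the 3′-end processing factor Cpsf2 (-0.38). Gon4l also fell against control (-0.52) and RBPJdel (-0.40). Of 14 histone chaperones 6 fell in N1c_RBPJdel against N1c, with Asf1b, an H3-H4 chaperone of dividing cells, going from 567, 437, 344 and 549.7 to 201, 226 and 188 (-1.19 ± 0.26). Nasp (-0.51), Hat1 (-0.42) and Nap1l4 (-0.31) were others. Asf1b also passed in the interaction (-1.70), and Nasp (-0.48) and Nap1l4 (-0.29) fell against control.

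Of 10 histone genes that are expressed outside S phase, H2ax rose in N1c (0.65, adjusted p = 0.0111) and fell in N1c_RBPJdel against N1c (-0.62) and in the interaction (-0.86). H2ax is itself made in S phase as well. H2az1 rose in N1c_RBPJdel against N1c (0.32), and H2aj fell against control (-0.51) and RBPJdel (-0.78). The median of these 10 was -0.05 in N1c and 0.19 in RBPJdel. Of 29 S phase genes Cdc6, which loads the replicative helicase, rose in N1c (0.60, adjusted p = 0.0487), and the median was 0.16 in N1c and 0.12 in RBPJdel. Against N1c 6 fell in N1c_RBPJdel, among them Rrm2, a subunit of ribonucleotide reductase (-1.34), Dtl (-1.08), E2f1 (-0.69) and Pcna, the sliding clamp (-0.41), and E2f2 fell against RBPJdel (-0.47). All 29 were lower in the interaction (median -0.48), without a call. Of 19 mitosis genes Ube2c, a ubiquitin-conjugating enzyme, rose in N1c (1.18), and Ccna2 (-1.89), Kif11 (-1.55) and Aurka (-0.40) fell in N1c_RBPJdel against N1c. All 19 were higher in N1c (median 0.76) and RBPJdel (0.62). All 19 were lower in N1c_RBPJdel against N1c (-0.86) and in the interaction (-1.39, none called). The 53 histone clusters had medians of 0.57, 0.53, -0.52 and -1.04 in these 4 comparisons. Mki67, the proliferation marker, lay at 271, 255, 119 and 158 in control and at 630.1, 559, 244 and 551 in N1c. It lay at 441, 545, 515 and 137 in RBPJdel and at 207, 270.2 and 259 in N1c_RBPJdel. No comparison called it, and N1c 4 and RBPJdel 4 overlapped control.

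The medians of the mitosis list differed between arrays, and their part in the histone differences was not tested. As log2 differences from the control mean they were 0.29, 0.36, -0.35 and -0.23 in control 2 to 5 and 1.28, 1.01, 0.25 and 0.89 in N1c. They were 0.61, 0.88, 0.77 and -0.14 in RBPJdel and -0.02, -0.08 and -0.11 in N1c_RBPJdel. The several-gene H3 clusters had 0.53, 0.51, -0.51 and -0.52 in control and 1.28, 1.10, 0.68 and 0.67 in N1c. They had 0.83, 1.18, 1.09 and 0.23 in RBPJdel and -0.14, -0.07 and -0.62 in N1c_RBPJdel. Control 4 and 5 were thus below the control mean in both. RBPJdel 4 was the lowest of its group in both, but above the control mean in H3. Over all 53 clusters the order was another: the median was 0.96, 0.33, 0.62 and 0.40 in N1c 1, 2, 4 and 5, so that N1c 4, lowest of its group in mitosis genes, was the second highest in histones. In RBPJdel it was 0.42, 0.37, 0.73 and 0.49, and the 31 clusters naming 1 gene were highest among RBPJdel arrays on RBPJdel 4 (0.64 against 0.18 to 0.39). All of these points share array, group and normalization.

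**Figure D5:**
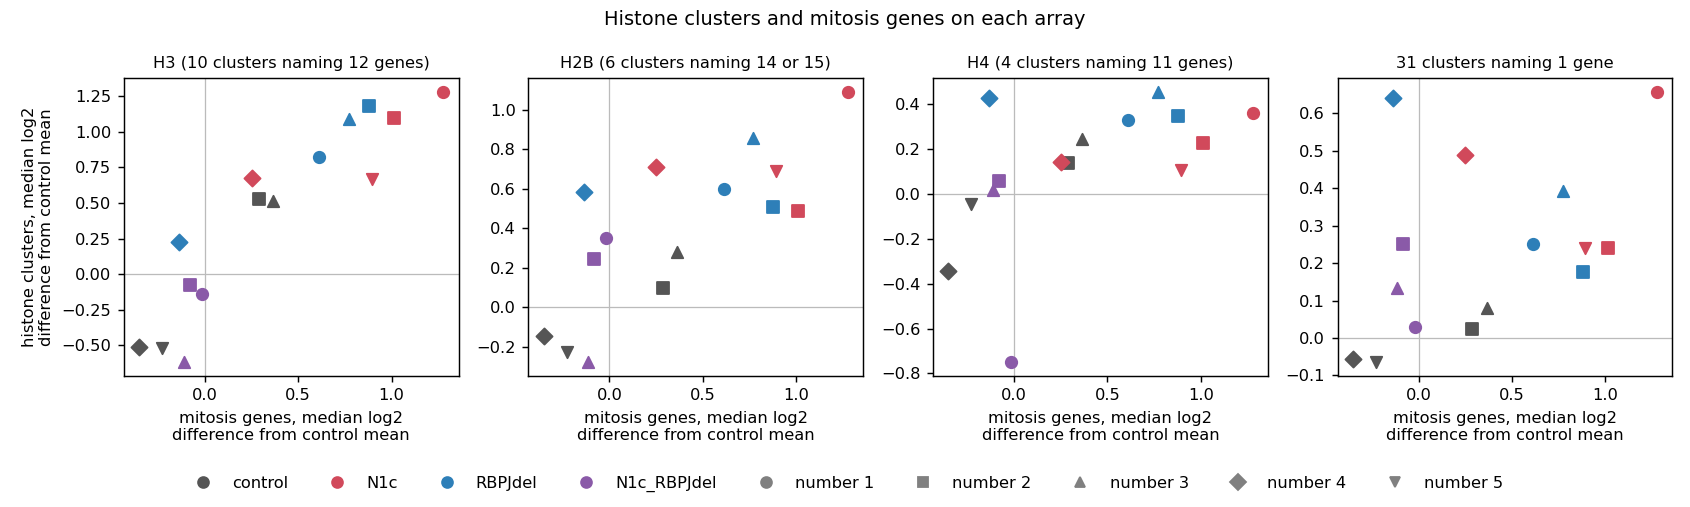
Median log2 difference from the control mean of 4 sets of histone clusters (y) against that of 19 mitosis genes (x) on each of 15 arrays, with colour giving the group and shape the replicate number. N1c arrays have a mitosis median of 0.25 to 1.28, and RBPJdel 4 (blue diamond) has -0.14 with H3 at 0.23 and the clusters naming 1 gene at 0.64.

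The arrays also differed in genes that respond to cell handling. The median of 6 immediate early and heat shock genes, as a log2 difference from the control mean, was -1.18 and -1.22 in control 2 and 3 but 1.66 and 0.35 in control 4 and 5. It was 0.95 and 0.68 in N1c 4 and 5 and 1.51 in RBPJdel 4, and between -1.21 and 0.09 on the other arrays numbered 1 to 3. Summed levels of the 6 spanned 2140.2 to 11669 on control arrays, 2711 to 10832 on N1c arrays, 2053 to 9745 on RBPJdel arrays and 2747 to 4091 on N1c_RBPJdel arrays. The differences within each set of numbers are given above for N1c; in RBPJdel the median histone difference was 0.39 within numbers 1 to 3 and 0.72 within number 4 against control 4 and 5. Some markers of other cells were higher in N1c_RBPJdel. Of 6 measured erythroid markers 2 rose against control, Car1 (2.58) and Slc4a1 (0.67), with a summed level of 604 to 1437 against 432 to 458. Of 7 B cell markers Cd79a (0.83) and Ms4a1 (0.95) rose, with sums of 723 to 1026 against 637 to 717, and of 6 neutrophil markers S100a9 (1.00) and Ngp (1.02) rose, with sums of 394 to 456 against 289.7 to 304. Of 5 plasma cell markers Jchain (1.16) and Prdm1 (0.52) rose and 2 were lower without a call, with a list median of 0.08 and sums of 1471 to 1849 against 1388 to 1819. Of 5 NK cell markers 1 rose in N1c_RBPJdel against control (list median 0.14). None was called of 2 CD8 T cell markers (-0.01), 5 dendritic cell markers (0.02) or 6 myeloid markers (0.27). In N1c_RBPJdel against N1c 3 B cell, 2 erythroid and 2 neutrophil markers rose, where 4.51% of all clusters rose. There 1 marker each of the NK, plasma cell, dendritic and myeloid lists also rose, and no marker of these lists fell. No marker of these lists was called in N1c or RBPJdel against control. The part of these cells in the histone levels of N1c_RBPJdel was not tested.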

How the data were processed

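Gene expression was measured on 15 Affymetrix arrays. The deposited values are intensities per transcript cluster, which, per the submitters' processing notes, the authors made with Affymetrix Power Tools by RMA; the sources used here give no version, annotation release or filter. RMA pulls arrays to a common distribution, which can hide a shift shared by most genes. The values (5.61 to 18029.7) were linear and were converted to log2. One mean per group was fitted to all 24922 clusters with limma 3.58.1 in R 4.3.3 (11 residual and 4.51 prior degrees of freedom), after a check on simulated data. The 6 contrasts included the interaction, N1c_RBPJdel minus N1c minus RBPJdel plus control. P-values are two-sided, adjusted by Benjamini-Hochberg within a comparison, and show only how arrays of a group vary, each of pooled mice. The number of arrays limits the precision.

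Members and lists were chosen with earlier results of these data known. Named members were those called in a comparison, those with the smallest p per class in N1c or RBPJdel against control, and the brightest per class; from the lists, up to 4 called genes per comparison and Slbp, Npat, Mki67, Foxp3, Rbpj and Notch1. Marker genes of other cells, H3c15, H1f6, H2bc4 and H2ac4 were named after their values were seen. Symbols and probe pairs follow the platform annotation, and H4bc24, by its older name an H2B gene, was counted as one. Residuals of N1c and control arrays with the same number correlated (r = 0.419, 0.364 and 0.388 for numbers 2, 4 and 5), which met the rule for pairing (each above 0.1); those of RBPJdel and control (0.193, -0.152 and 0.442) did not. Alternatives were quantile normalization, named or brighter clusters only, the compared groups alone, the replicate block, array weights and each array left out; the split by numbers, the clusters naming 1 gene for the counts and the current symbols alone were chosen after seeing the data. Promoters are RefSeq's.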

Additional observations from a re-analysis of the deposited data

Results flagged for a closer look

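In N1c_RBPJdel the state of Rbpj cannot be told apart from the sorter. With that limit, the histone difference going with active Notch1 was not the same with and without Rbpj (interaction, limma). This held for H1f1 (-1.37), H2ac1 (-0.78), H2ac15 (-1.86), H2bc14 (-1.54), H2bc3 (-1.79), H2bc9 (-1.09) and H2bc1 (-1.13), and for the several-gene clusters of H2B (median -1.28) and H3 (median -2.06). The sign was negative for each of the 7 named genes under every alternative run. The calls of H1f1 and H2ac15 held in all of them, while that of H2ac1 was lost in 12 of 21.

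Among 30 groups of named members examined for a single array standing apart, 1 was found, H2bc3 in N1c 1, at 1137 against 682, 708 and 741 on the other arrays of that group. About 1 in 20 such groups would be found by chance.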

How the results depend on the processing

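No called histone cluster changed sign under any alternative run. Of the calls of clusters naming 1 gene 365 of 481 values under the alternatives stayed past the threshold, and of those naming several genes 640 of 832. The median in N1c_RBPJdel against control did change sign, from -0.13 to 0.04 with an array left out and to 0.09 over clusters naming 1 gene. Of the counts and medians 231 stayed close to the reported value and 55 moved. Leaving out each array in turn gave 1 to 11 called clusters in N1c against control, 0 to 1 in RBPJdel against control, and 0 to 3, 2 to 25 and 0 to 20 in N1c_RBPJdel against control, N1c and RBPJdel. The interaction had 11 to 26. Without N1c_RBPJdel 1 the counts in N1c_RBPJdel against control and against RBPJdel were 0. A fit of the compared groups alone gave 3 in N1c, and 1, 12 and 1 in N1c_RBPJdel against control, N1c and RBPJdel. The replicate block gave 23 in N1c (16 with N1c and control alone), and 18 and 25 in N1c_RBPJdel against control and RBPJdel; the numbers did not meet the pairing rule for the last 2. Array weights gave 11 in RBPJdel and 1 and 2 in N1c_RBPJdel against control and RBPJdel. Quantile normalization gave 2 and brighter clusters 1 in RBPJdel. Numbers 1 to 3 alone gave 1 in N1c, 12 and 15 in N1c_RBPJdel against control and RBPJdel and 14 in the interaction; numbers 4 and 5 alone gave 0 in N1c and a median of 0.72 in RBPJdel. Clusters naming 1 gene gave 4 in N1c, 5 in N1c_RBPJdel against N1c and 7 in the interaction, with medians of 0.35 in RBPJdel, -0.29 in N1c_RBPJdel against RBPJdel and -0.60 in the interaction. The current symbols alone gave 4 in N1c and a median of -0.22 in N1c_RBPJdel against control. The cause of these shifts was not tested. Near-identical copies, pooled mice, 3 or 4 arrays per group and 12 dim clusters limit the reading of single genes.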
